A study of Mus musculus with 2 samples.

Results

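A group of 9 genes of transforming growth factor beta (TGF-beta) signalling was followed in FGF2-treated and untreated feeder fibroblasts: the ligands Tgfb2 and Tgfb3, the latent TGF-beta binding protein family members Ltbp1 and Ltbp2, the activator Thbs1, the antagonists Fst and Lefty1, and the target genes Id3 and Ccn1. They were listed by name for their roles, with earlier results of these arrays known, and each was found through the NCBI gene ID in its probe's ID. All 9 genes had 1 named probe each, among 7413 genes that could be named from probe IDs. Of the 9, 8 were detected, among 3220 named genes detected on at least 1 array. The cells were CD1 mouse embryonic fibroblasts, primary cells of an outbred strain, of the kind on which human embryonic stem cells are grown. They had been grown with fetal calf serum, stopped from dividing by mitomycin C, which crosslinks DNA, and replated on gelatine at 55000 cells per square centimetre. One culture was then kept for 24 h with 40 ng/ml of FGF2 in a basic medium for human embryonic stem cells that holds serum replacement, and the other for 24 h in that medium without FGF2. Each culture was measured on 1 Illumina bead array, so no difference could be checked against replicates, no p-value is given, and all values describe this pair of cultures. The labels do not say how many embryos the cells came from.

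TGF-beta is secreted in a latent form, held by its own propeptide, which latent TGF-beta binding proteins tether to the matrix. Integrins, proteases and thrombospondin 1 can release the active ligand, which binds type II and type I receptor kinases. These phosphorylate SMAD2 and SMAD3, while the related bone morphogenetic proteins (BMPs) act through SMAD1, SMAD5 and SMAD8. In fibroblasts TGF-beta is known for raising the expression of collagens, elastin and contractile proteins.

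Of 24044 probes, 33.8% were detected on the FGF2 array and 34.1% on the control array, at a detection score of at least 0.99. All 7 fibroblast markers with a named probe were detected, among them Prrx1, Col1a2, Dcn and S100a4, with summed signals over background of 24470 on the FGF2 array and 32111 on the control array. Of other cell types, 2 of 7 macrophage and blood markers, 1 of 2 endothelial markers, 2 of 4 epithelial markers and 0 of 5 embryonic stem cell markers were detected. The summed signals over background were 68 and 157 for macrophage and blood markers on the FGF2 and control arrays, 163 and 137 for endothelial ones, and 329 and 143 for epithelial ones. The highest log2 ratio among these was that of the keratin gene Krt18 (0.91, in normalized signals 385 with FGF2 against 205 without). No marker of smooth or skeletal muscle had a named probe. Any part of these cells in the results was not tested, and in bulk RNA fewer cells of a type cannot be told apart from less RNA per cell.

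Most of the genes had lower signals with FGF2. Of the 8 detected, 6 were at least 1.5-fold lower on the FGF2 array than on the control array, whereas 5.06% of all named detected genes were. None was at least 1.5-fold higher, against 4.57% of all named detected genes. Tgfb2, Tgfb3, Ltbp2 and Thbs1 were at least 2-fold lower, which 1.61% of all named detected genes were. The median log2 ratio of the 8 genes, FGF2 over control, was -1.11, and that of all 3220 genes was 0.03. The genes within 1.5-fold, Ltbp1 and Ccn1, both had higher signals with FGF2. Ratios are from signals quantile normalized between the arrays. Their bead error on the log2 scale was between 0.052 and 0.096. A wider error was taken from genes with several probes detected on both arrays. In 305 pairs of such probes the log2 ratios differed with an SD of 0.26, equal to an SD of 0.18 per probe. This is scatter between probes on the same 2 arrays and holds no variation between cultures or arrays.

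**Figure D1:**
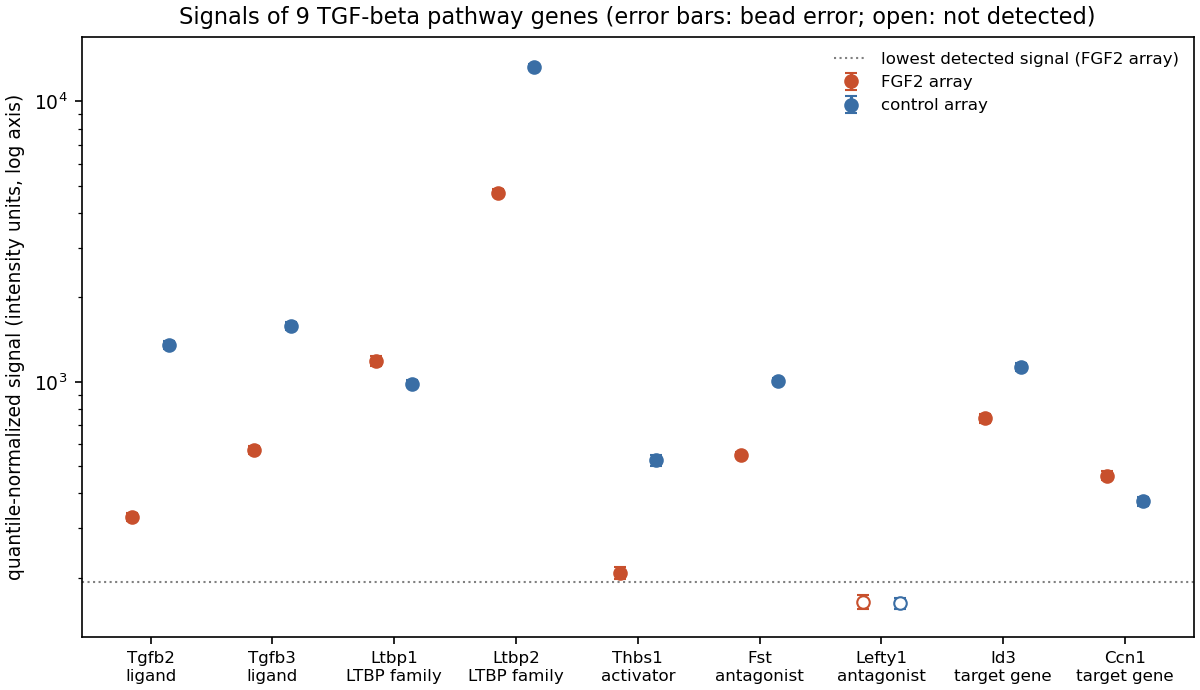
Quantile-normalized signal (intensity units, log axis) of each of the 9 genes on the FGF2 array (left point of each pair) and the control array (right point). Bars are the bead error, and the dotted line is the lowest detected signal of the FGF2 array, 193. Tgfb2, Tgfb3, Ltbp2, Thbs1, Fst and Id3 are lower with FGF2, Ltbp1 and Ccn1 slightly higher, and the open points of Lefty1 lie under the line on both arrays. Signals of different probes are not comparable with each other.

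Tgfb2 and Tgfb3 were both lower with FGF2. Tgfb2, which codes for a TGF-beta isoform needed for heart, craniofacial and other development, had a deposited signal of 321.4 ± 10.7 on the FGF2 array against 1373.8 ± 44.1 on the control array (bead error, 1 array each). After normalization these were 329 intensity units with FGF2 and 1356 without, a 4.12-fold lower signal with FGF2 (log2 ratio -2.04, bead error 0.067). Only 12 of the 3220 named detected genes, Tgfb2 included, had a ratio this low. In the authors' deposited table, from which background has been subtracted, Tgfb2 stood at 200 with FGF2 and 1235 without, a 6.17-fold difference. Background as the authors removed it made up 40.9% of the deposited Tgfb2 signal with FGF2 and 10.1% without, so the ratio before subtraction is the smaller one.

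Tgfb3, the isoform known for its role in closing the palate, had deposited signals of 562.3 ± 18.0 with FGF2 and 1606.0 ± 57.9 without. It was 2.77-fold lower with FGF2 (normalized signals 571 against 1581, log2 ratio -1.47, bead error 0.070). Of the 3220 genes, 29 had a ratio as low as this. The Tgfb2 ratio was lower than the Tgfb3 ratio by 0.57 on the log2 scale, which is 2.22 times the SD between 2 probes of the same gene. In the authors' deposited table Tgfb3 had 454 with FGF2 and 1467 without.

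Few other ligands of the family were detected. Of 31 ligand genes listed, 11 had a named probe and 5 were detected, 4 of them on both arrays. These 4, Tgfb2 and Tgfb3 included, had log2 ratios below 0, as did 1449 of all 3220 named detected genes. Gdf10, a BMP-related ligand, was detected on the control array only and was at least 1.86-fold lower with FGF2 (at least 3.94-fold in the authors' deposited table). These are bounds, and the sign of its ratio follows from that detection. Gdf1, which in mouse shares a transcript with a ceramide synthase gene, had a log2 ratio of -0.34, within 2 SD per probe (0.37) of 0. Gdf15, a stress-induced ligand, had signals of 298 with FGF2 and 305 without, a log2 ratio of -0.03 that is smaller than its bead error of 0.065. Bmp6, Bmp8b, Gdf5, Gdf6, Gdf11 and Mstn were not detected on either array. Tgfb1, Inhba, Bmp2 and Bmp4 were not analysed here, since no probe carried their gene ID.

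The promoter of Tgfb2 is shown because this gene had the lowest ratio of the 8. It is the RefSeq window from 250 bases before to 50 bases after the annotated start, on the gene's strand, at chr1:186705940-186706239 of GRCm38.p6 (minus strand). Capitals mark matches, on either strand, to CAGAC (a SMAD element), TGANTCA (an AP-1 element), TGACGTCA (a cyclic AMP response element, CRE), TATAAA (the TATA box) or GGGCGG (a GC box).
Tgfb2: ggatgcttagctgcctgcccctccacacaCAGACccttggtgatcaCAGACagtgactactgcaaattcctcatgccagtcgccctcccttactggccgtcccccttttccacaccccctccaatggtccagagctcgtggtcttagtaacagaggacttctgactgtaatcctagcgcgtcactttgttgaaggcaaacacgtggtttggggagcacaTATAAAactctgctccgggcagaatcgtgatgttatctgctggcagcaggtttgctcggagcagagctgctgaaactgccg
The window held 2 SMAD elements, which began 221 and 204 bases before the start, and a TATA box 31 bases before it. Of all 32851 mouse promoter windows of this length, 49.6% held at least 1 SMAD element and 13.6% the TATA box letters. A match is a description of letters and not a shown binding site.

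Ltbp1 and Ltbp2 belong to the same protein family and went different ways. Ltbp1, which binds the latent TGF-beta complex and anchors it in the matrix, had deposited signals of 1164.3 ± 50.3 with FGF2 and 1007.4 ± 30.5 without. Its normalized signals were 1186 with FGF2 and 984 without, a log2 ratio of 0.27 (1.20-fold higher with FGF2, bead error 0.076). That ratio lies within 2 SD per probe, 0.37, of 0. Ltbp2, a matrix protein of elastic fibres that is not known to bind latent TGF-beta, had deposited signals of 4802.7 ± 121.2 with FGF2 and 12638.1 ± 328.3 without. It was 2.80-fold lower with FGF2 (normalized signals 4730 against 13244, log2 ratio -1.49, bead error 0.052). Background was 2.74% of the Ltbp2 signal with FGF2 and 1.10% without, and the fold in the authors' deposited table was 2.54. The Ltbp2 ratio was lower than the Ltbp1 ratio by 1.75 on the log2 scale, or 6.78 times the SD between 2 probes of the same gene.

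The promoters of the pair are shown because the ratios of these related genes differed. Both are RefSeq windows of GRCm38.p6 of the same extent as above, Ltbp2 at chr12:84876442-84876741 (minus strand) and Ltbp1 at chr17:75005279-75005578 (plus strand), with the same motifs in capitals.
Ltbp2: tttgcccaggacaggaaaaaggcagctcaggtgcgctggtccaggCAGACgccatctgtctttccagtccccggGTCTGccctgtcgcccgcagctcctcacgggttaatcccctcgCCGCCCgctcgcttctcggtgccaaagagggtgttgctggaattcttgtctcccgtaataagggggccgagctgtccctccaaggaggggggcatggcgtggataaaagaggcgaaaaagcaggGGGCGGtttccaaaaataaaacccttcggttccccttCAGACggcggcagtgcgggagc
Ltbp1: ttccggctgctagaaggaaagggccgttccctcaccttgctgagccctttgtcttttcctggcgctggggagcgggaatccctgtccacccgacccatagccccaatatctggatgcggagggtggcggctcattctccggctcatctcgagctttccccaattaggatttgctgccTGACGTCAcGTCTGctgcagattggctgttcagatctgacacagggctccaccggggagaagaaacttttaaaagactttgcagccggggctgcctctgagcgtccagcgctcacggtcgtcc
The Ltbp2 window held 3 SMAD elements, which began 205 and 176 bases before and at base 29 after the start, and 2 GC boxes at 133 and 9 bases before it. The Ltbp1 window held a CRE 73 bases before the start, which 1.79% of all windows have, and 1 SMAD element at 64 bases before it, with 1 base between them. GC boxes were in 35.7% of all windows. Ltbp1 has another annotated start at chr17:75178531-75178830, whose window held 2 SMAD elements and none of the other motifs. The files do not say which start the measured transcript used.

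**Figure D2:**
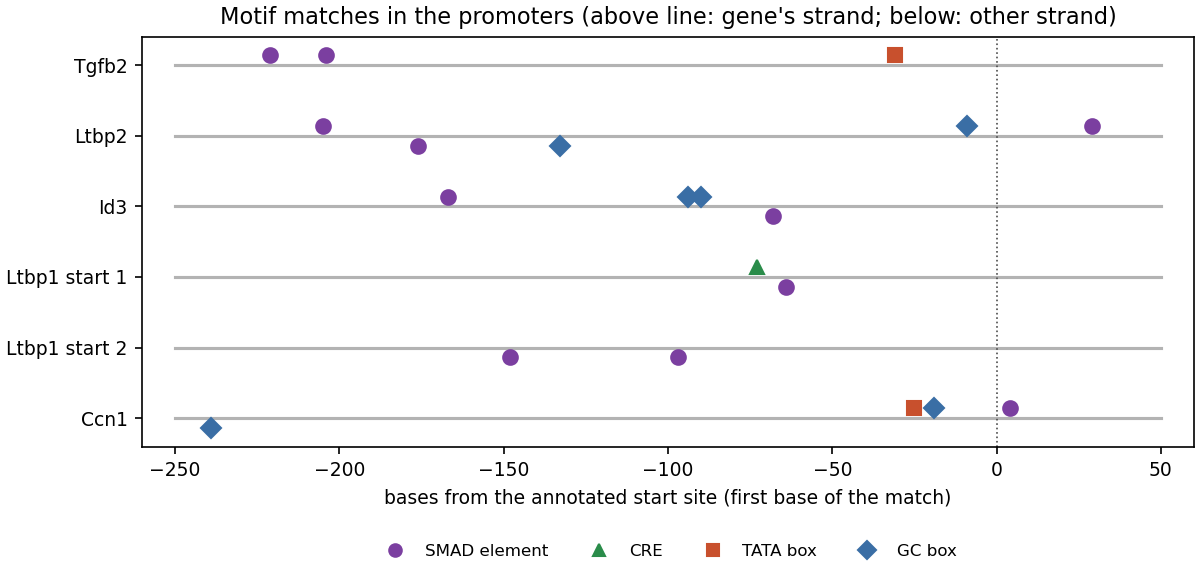
Motif matches in the promoter windows of 5 of the 9 genes, plotted by the first base of each match in bases from the annotated start site (dotted line). Marks above a line are on the gene's strand and marks below it on the other strand. SMAD elements appear in all 6 windows, the CRE in the first Ltbp1 window, and TATA boxes in those of Tgfb2 and Ccn1.

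Thbs1 codes for thrombospondin 1, a matrix glycoprotein that can activate latent TGF-beta. Its deposited signals were 200.9 ± 10.0 on the FGF2 array, with a detection score of 0.996, and 536.2 ± 23.9 on the control array. It was 2.53-fold lower with FGF2 (normalized signals 208 against 526, log2 ratio -1.34, bead error 0.096). The FGF2 signal was close to the lowest detected signal of that array, 193, and background made up 65.5% of it. In the authors' deposited table the values were 73.1 with FGF2 and 397 without, a 5.43-fold difference. Both pairs of values come from the same signals, so their shared direction is not a second observation. The size of the Thbs1 fold depended on the background removed.

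Other genes that hold or release latent TGF-beta mostly stayed within 1.5-fold. Of 30 listed binders and activators, 11 had a named probe and 9 were detected. Of these 9, only Ltbp2 and Thbs1 were at least 1.5-fold lower and none was 1.5-fold higher. Over all named detected genes, 5.06% were lower and 4.57% higher by as much, and most stayed within 1.5-fold. Ltbp2 is counted in this list by its family, though it is not known to bind latent TGF-beta. The list median was -0.34, and -0.21 over the 6 without Ltbp1, Ltbp2 and Thbs1. Itgb5, a subunit of a TGF-beta-activating integrin, had a log2 ratio of -0.57 (normalized signals 852 with FGF2 and 1263 without). Fbln2, a fibulin of the matrix, stood at -0.44. Ltbp3, another binder of the latent form, had ratios of -0.34 and -0.33 on 2 probes. Itgav, the partner subunit of Itgb5, was detected with FGF2 only, at a signal of 195, just above the lowest detected one, and has only a bound.

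Of the antagonists, Fst was lower and Lefty1 was not detected. Fst codes for follistatin, which binds and neutralizes activin, and had deposited signals of 540.2 ± 14.4 with FGF2 and 1028.6 ± 24.7 without. It was 1.84-fold lower with FGF2 (normalized signals 548 against 1009, log2 ratio -0.88, bead error 0.052), and 68 of the 3220 genes had a ratio as low. In the authors' deposited table the fold was 2.06. Lefty1, an inhibitor of Nodal that is best known from the early embryo, had signals of 158.4 ± 9.2 with FGF2 and 167.3 ± 7.9 without. Its detection scores, 0.882 with FGF2 and 0.895 without, were below 0.99, so it has no fold.

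Other secreted antagonists did not share 1 direction. Of 22 listed, 7 had a named probe and 3 were detected. Besides Fst these were Twsg1, which binds BMPs, at a log2 ratio of -0.60 (1303 with FGF2 and 1976 without), and Dcn (decorin), a proteoglycan that can bind TGF-beta, at 0.42 (6061 with FGF2 and 4528 without). Lefty2, Chrdl1 and Dand5 were not detected.

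The target genes Id3 and Ccn1 had ratios of opposite sign. Id3, an inhibitor of basic helix-loop-helix factors and a direct target of BMP-activated SMADs, had deposited signals of 727.6 ± 27.5 with FGF2 and 1152.3 ± 39.5 without. It was 1.53-fold lower with FGF2 (normalized signals 740 against 1130, log2 ratio -0.61, bead error 0.074), only just past 1.5-fold. With 50 units added to both signals in place of the floor, its fold was 1.49. Ccn1 (also Cyr61), a secreted matrix-associated protein that is a target of TGF-beta and of other pathways, had deposited signals of 449.9 ± 16.6 with FGF2 and 384.5 ± 13.5 without. Its log2 ratio was 0.30 (normalized signals 462 with FGF2 and 375 without), within 2 SD per probe of 0. The Id3 ratio was below the Ccn1 ratio by 0.91, or 3.53 times the SD between 2 probes of the same gene.

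The promoters of these target genes are shown because Id3 is a known SMAD target and the ratios of the pair differed in sign. They are RefSeq windows of GRCm38.p6 with the motifs in capitals as above, Id3 at chr4:136143572-136143871 (plus strand) and Ccn1 at chr3:145649936-145650235 (minus strand).
Id3: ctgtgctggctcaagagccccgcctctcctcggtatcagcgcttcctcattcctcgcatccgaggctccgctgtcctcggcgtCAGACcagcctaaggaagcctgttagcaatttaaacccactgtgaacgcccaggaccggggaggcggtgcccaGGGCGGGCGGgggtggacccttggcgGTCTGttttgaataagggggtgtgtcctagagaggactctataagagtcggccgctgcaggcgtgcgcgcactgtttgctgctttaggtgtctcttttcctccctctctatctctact
Ccn1: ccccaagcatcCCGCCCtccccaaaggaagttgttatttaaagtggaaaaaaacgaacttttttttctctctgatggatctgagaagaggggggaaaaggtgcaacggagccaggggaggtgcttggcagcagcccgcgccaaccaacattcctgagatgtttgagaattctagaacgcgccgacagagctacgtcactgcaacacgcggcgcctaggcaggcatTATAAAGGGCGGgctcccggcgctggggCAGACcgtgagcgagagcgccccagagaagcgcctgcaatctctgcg
The Id3 window held 2 SMAD elements, at 167 and 68 bases before the start, and 2 overlapping GC boxes at 94 and 90 bases before it. The Ccn1 window held 1 SMAD element at base 4 after the start. It also held a TATA box at 25 and a GC box at 19 bases before the start, which adjoin, and a second GC box 239 bases before it. None of the 6 windows of these genes held the AP-1 letters, which 7.81% of all windows have.

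**Figure D3:**
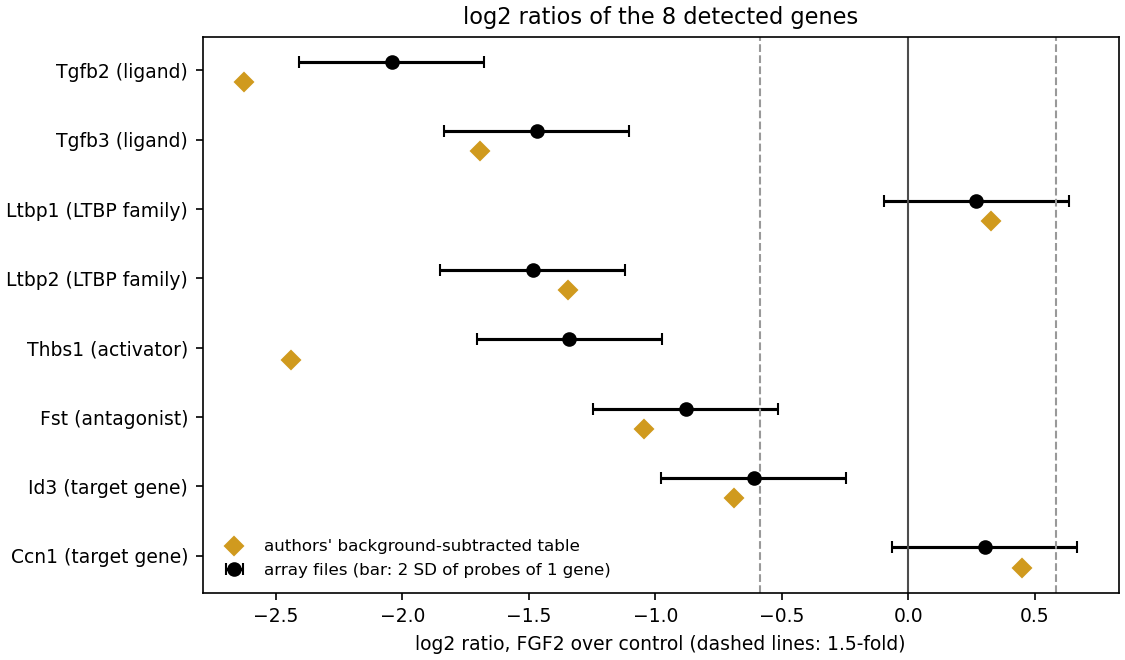
log2 ratio of FGF2 over control for the 8 detected genes. Black points are from the array files with bars of 2 SD per probe (0.37), diamonds are from the authors' background-subtracted table, and dashed lines mark 1.5-fold. Tgfb2 and Thbs1 show the widest gaps between point and diamond, and the bars of Ltbp1 and Ccn1 cross 0.

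The ratios were also set beside those of probes of like brightness. Among the 500 detected probes closest to Tgfb2 in mean signal, the log2 ratios had a middle 95% of -1.12 to 0.88, and 3 were as low as Tgfb2, itself included. For Tgfb3 the count was 9 of 500, for Ltbp2 7, for Thbs1 8, for Fst 19 and for Id3 39. Tgfb2, Tgfb3, Ltbp2 and Thbs1 thus lay below the middle 95% at their own brightness, while Fst and Id3 lay inside it. Ltbp1 and Ccn1 were also inside, with 133 and 91 of 500 probes as high.

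**Figure D4:**
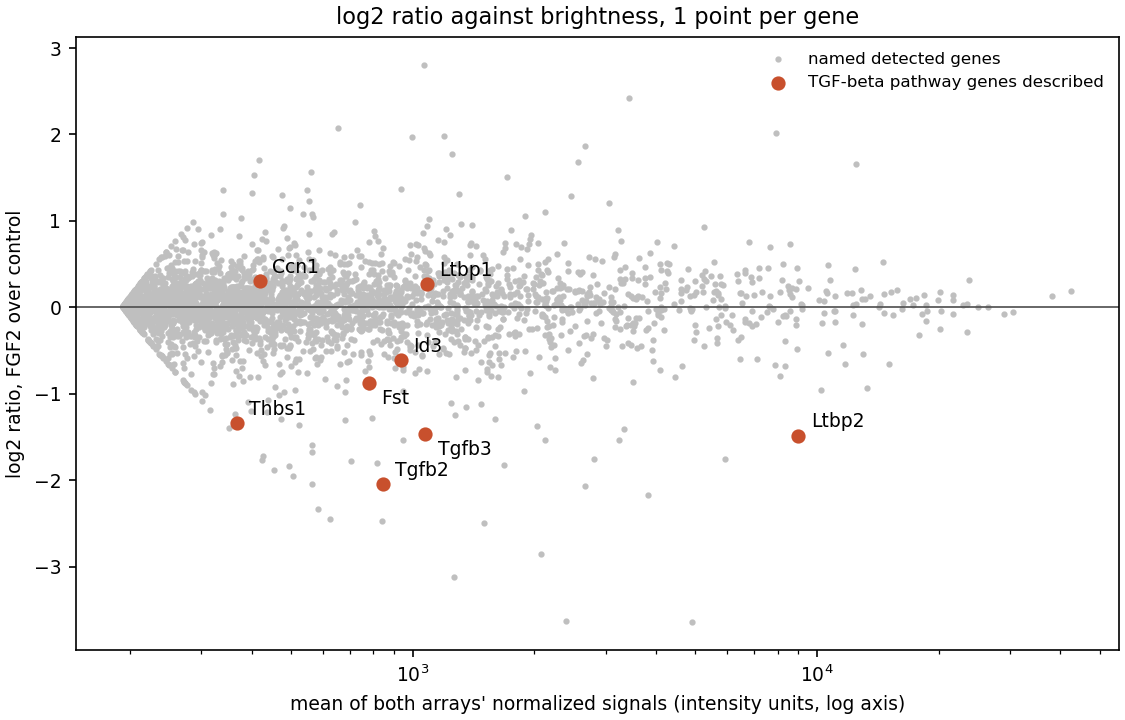
log2 ratio of FGF2 over control against the mean of both normalized signals (log axis), with 1 point for each named detected gene. The 8 genes described are in colour. Tgfb2, Tgfb3, Ltbp2 and Thbs1 lie at the lower edge of the cloud, whereas Ltbp1 and Ccn1 lie within it, at 0.27 and 0.30.

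Receptor genes, Smad4 and SMAD regulators detected on both arrays differed by less than 1.5-fold, as did 2910 of all 3220 named detected genes. Of 16 receptor genes listed, 10 had a named probe and 6 were detected, 4 of them on both arrays, and these 4 stayed within 1.5-fold. The type I receptors Tgfbr1 and Acvr1 had log2 ratios of -0.36 and -0.34, Bmpr1a stood at -0.18, and the co-receptor Eng at -0.03. Tgfbr2, the type II TGF-beta receptor, was detected on the control array only and Bmpr1b with FGF2 only, both close to the lowest detected signals, so each has only a bound. Of 30 SMADs and regulators, 11 had a named probe and 4 were detected, all within 1.5-fold, with a median of -0.06. Smad4, the SMAD shared by the TGF-beta and BMP branches, had signals of 2232 with FGF2 and 2452 without. It was the only SMAD measured, since no probe carried the gene ID of Smad1, Smad2, Smad3, Smad5, Smad6, Smad7 or Smad9. The ubiquitin ligase gene Nedd4l had a log2 ratio of 0.32, the phosphatase genes Ppm1a 0.02 and Ctdsp1 -0.30.

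Genes known to be raised by TGF-beta in mesenchymal cells were lower in many cases. Of 30 listed, 18 had a named probe and 16 were detected, of which 9 had a signal lower by 1.5-fold or more and 7 by 2-fold or more. Over all named detected genes, 5.06% and 1.61% were lower by that much. The median log2 ratio of the 16 was -0.88, against 0.03 over all genes. Another 6 of the 16 stayed within 1.5-fold: Col3a1 (-0.57), Tgfb1i1 (-0.47), Cdkn1a (-0.18), Junb (0.04), Fosl2 (0.24) and Ccn1 (0.30). A second, dimmer probe of Tgfb1i1 stood at -0.62. In all, 4 of the 16 had ratios above 0. Eln, the gene of elastin, had normalized signals of 262 with FGF2 and 2274 without, and a log2 ratio of -3.12. Acta2, an actin of smooth muscle and myofibroblasts, stood at -2.50 and Mylk, myosin light chain kinase, at -2.04. Col1a1 and Col1a2, which code for type I collagen, had log2 ratios of -1.76 and -1.30, and Igfbp3, which binds insulin-like growth factors, -1.59. In the authors' deposited table the folds were 16.4 for Eln, 9.20 for Mylk and 4.88 for Igfbp3, over 1.5 times those from the array files. Sphk1, a sphingosine kinase gene chosen here after its value was seen, was the 1 gene of the list at least 1.5-fold higher (1.84-fold, 1039 with FGF2 against 565 without). Many of these genes respond to other signals too, and Acta2 is close in sequence to other actins.

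Of 16 BMP target genes listed, 4 had a named probe and 3 were detected, Id3 and Gata3 among them. Gata3 had a ratio of 0.21 at signals of 235 with FGF2 and 203 without, near the lowest detected. Over all 7 lists, 46 of 175 genes were detected, 18 of them (39.1%) lower by 1.5-fold or more and 1 higher by as much, against 5.06% and 4.57% of all named detected genes. Of the 18, 9 were among the 16 detected TGF-beta target genes. Among the 6 receptors and the 4 SMADs and regulators detected there were 0, but these are too few genes to set against 5.06%. Without the genes this account opened with, 12 of 38 (31.6%) were at least 1.5-fold lower, again against 5.06%, and the median was -0.34. These 12 include all 9 of the TGF-beta target genes. Both counts include Gdf10, whose ratio is a bound and whose sign follows from its detection on the control array only. Among genes detected on both arrays, 17 of 42 pathway genes were at least 1.5-fold lower, against 4.86% of all named genes so detected. These genes were listed with earlier results known, and the same cultures gave all of the values, so the counts are a description. In the authors' deposited table, 5 of the 8 detected genes were at least 2-fold lower, where 4.1% of all named detected genes were.

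**Figure D5:**
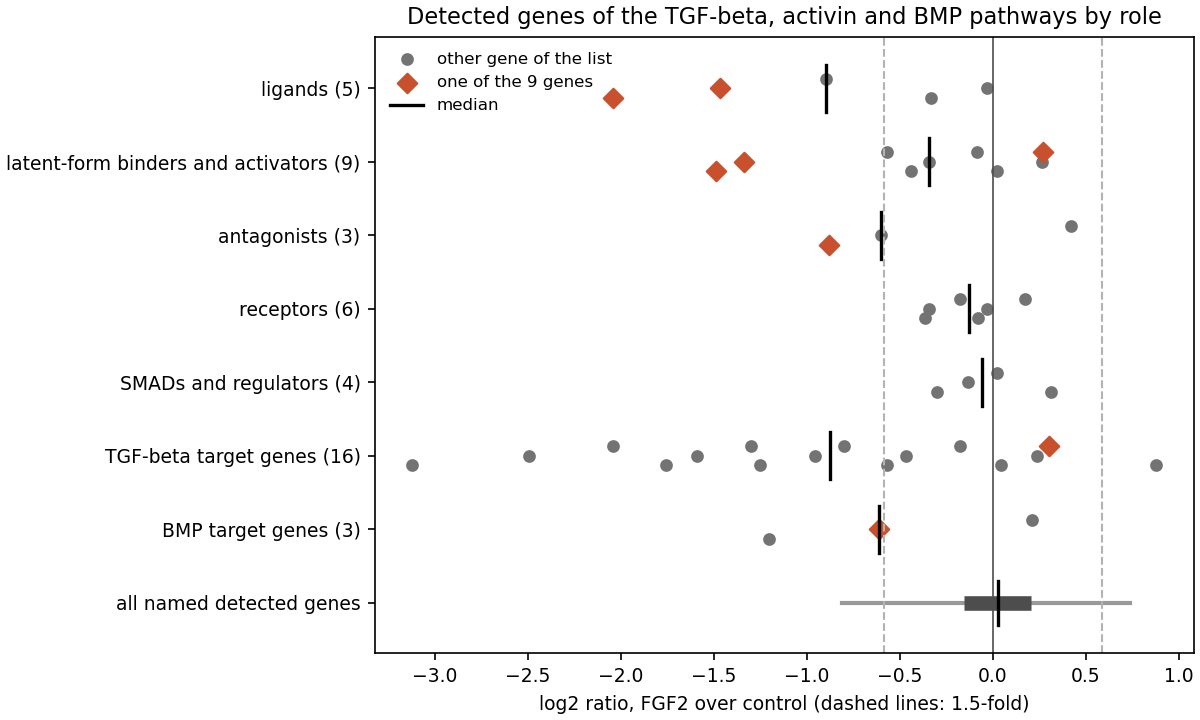
log2 ratio of FGF2 over control for the detected genes of the 7 lists (number detected in brackets), with the genes described first as diamonds, other genes as points and list medians as bars. The lowest row gives all 3220 named detected genes: the thick bar is their middle 50%, from -0.15 to 0.20, and the thin bar their middle 95%. Genes detected on 1 array, such as Tgfbr2, Bmpr1b, Itgav and Gdf10, are drawn at their bound. Receptors, Smad4 (the only SMAD measured) and SMAD regulators detected on both arrays lie between the dashed lines of 1.5-fold, as do 2910 of the 3220 named detected genes. Ligands and TGF-beta target genes spread to lower values.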

How the data were processed

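Total RNA of 1 FGF2-treated and 1 untreated culture was measured on 1 bead array each. Per the labels' protocols, 300 ng was put through a linear amplification with in vitro transcription for 6 h and a Cy3 label. BeadStudio 1.0 was used, per the submitters' processing notes. The deposited array files give a mean signal intensity, a bead error and a detection score for each probe, per the file headers. The score runs from 0 to 1. The header calls the bead error a standard deviation, and no source used here says whether it is that of the beads or of their mean. The deposited signals include background. The authors' processed table holds intensities equal to the signal minus 131.5, times 1.054, for FGF2, and to the signal minus 139.2 for the control (largest deviation 0.095). It gives values for detected probes only, with medians of 293 with FGF2 and 288 without, on a linear scale. No source used here names the method behind the factor.

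Numbers of at least 5 digits after 1 or 2 zeros in a probe ID were read as NCBI gene IDs. The files do not state this, and the names of 8884 of the 8893 named probes rest on it. The rest were named by a RefSeq accession in the probe ID, and 15151 of the 24044 probes stayed unnamed. Of 9523 numbers read as gene IDs, 93.3% matched the RefSeq gene table of GRCm38.p6, against 48.6% of the next higher numbers. The probes' genome positions were not used here. Signals were quantile normalized over all 24044 probes, and signals below the lowest detected one (193.1 with FGF2, 191.7 without) were set to it. The brightest detected probe stands for a gene, and a gene detected on 1 array has a bound. Named are the 9 genes and up to 6 of each list with the largest differences. A gene that this rule takes is not reported here. Others named were chosen after their values were seen. The genes and lists were chosen with earlier results of these data known. The ratio step was tested on simulated data, with changes planted only in probes bright on the control array, so dim genes were not covered. The number of arrays limits the precision. Python 3.11.15 with numpy 2.4.6 and pandas 2.3.3 was used.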

Additional observations from a re-analysis of the deposited data

How the results depend on the processing

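The alternatives were the signals as deposited, median scaling, the authors' table, 50 units added in place of the floor, a detection score of at least 0.95, the mean over a gene's probes, genes detected on both arrays only, and a 2-fold threshold. The number of the 9 genes at least 1.5-fold lower stayed at 6, except for 5 with the added 50, where Id3 fell under 1.5-fold, and 4 at 2-fold; the number at least 1.5-fold higher stayed at 0. The number of pathway genes at least 1.5-fold lower ranged from 16 with the added 50 to 20 with the deposited signals and with the authors' table, and was 12 at 2-fold. The share of all named detected genes that were lower by as much moved with these settings: 4.5% with the added 50, 5.06% in the report, 6.18% with the deposited signals, 9.97% in the authors' table and 1.61% at 2-fold. The 1 pathway gene at least 1.5-fold higher, Sphk1, left 0 at 2-fold. None of 48 log2 ratios of the 8 detected genes under 6 settings changed sign, and 45 moved by less than 0.18, the SD per probe. The other 3 were those of Tgfb2 (-2.63), Tgfb3 (-1.69) and Thbs1 (-2.44) in the authors' table, where the background removed is a larger part of the dim FGF2 signals. For these 8 genes the lower detection score and the mean over probes could not move a ratio. Each has 1 named probe, detected on both arrays, so the values under these settings are no check. Of 180 ratios of 30 other pathway genes, 17 moved by 0.18 or more, and 2, both of Ppm1a, changed sign. No paired analysis was possible because each group has 1 array. Dim genes such as Thbs1 and Lefty1 are limited by their signal over background.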

Other observations

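Of the pathway genes, 7 had a pair of detected probes. The probes of Ltbp3 differed by 0.018 on the log2 scale, those of Cdkn1a by 0.068, those of Bmpr1a by 0.12, those of Dcn by 0.13 and those of Tgfb1i1 by 0.16. Those of Ppm1a differed by 0.35, with ratios of 0.02 and -0.32. Timp3 codes for an inhibitor of metalloproteinases. Its brighter probe had a log2 ratio of -1.25 (754 with FGF2 and 1796 without), and its dimmer probe, not detected with FGF2, has only a bound of -0.57, so no difference between them is given. All 9 genes described first have 1 named probe each, so this check was not possible for them. Whether unnamed probes also measure them is not known.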
